A study of Populus tremula x Populus alba with 6 samples.

Results

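From the genes expressed in the shoot apex of 6 poplars, 200 are described here. Their scores were the highest and lowest of 1 contrast between plants that crosses the genotypes, among ranked genes that met a condition given below. They are 100 genes whose levels were high in CTRL 2 and RNAi 3 and low in CTRL 1 and RNAi 1, and 100 genes with the opposite order. All plants were of the hybrid 717-1B4 of Populus tremula and Populus alba, grown on compost at 21 °C with 16 h of light. They went without sufficient water for 3 weeks and were watered again for 1 week before harvest. The 3 CTRL plants were wild type, and the 3 RNAi plants carried a knock-down construct against DDM1. Neither the number of transformed lines nor the promoter of the construct is given in the sources used here. All groups had the same drought, so no well-watered plant enters any comparison.

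The members were selected by their measured levels. Sense-strand counts were divided by the sum of gene counts of the library to give counts per 1000000 gene counts (CPM), and log2(CPM + 1) was used as the level. A score was formed per gene as the mean level of CTRL 2 and RNAi 3 minus the mean level of CTRL 1 and RNAi 1. It was kept where both libraries of one pair lay above both of the other. Of 32049 genes listed, 18376 had a mean of at least 5 CPM over the 6 libraries and lay neither on chromosome 19 nor on a scaffold that carries no chromosome number. The members are the 100 highest and the 100 lowest of the kept scores among them. Scores that failed the pair condition were left out, even where more extreme. The lowest score over all 18376 genes was -3.54. The scores therefore describe the choice and are not tested. CTRL 3 and RNAi 2 entered only through the mean level, so their levels are the part of the data that the score did not use.

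DDM1 is a chromatin remodeller that, in Arabidopsis, keeps transposons and other repeats methylated and silent. Poplars of a named hybrid clone are propagated by cuttings or tissue culture, so plants of the clone share a genome apart from a construct and from changes that arise during culture. The shoot apex holds the meristem, leaf primordia and young leaves, and its RNA is a mixture of all of these. In bulk RNA of this kind, fewer cells of a type and less RNA per cell cannot be told apart. The files do not pair identifiers with gene names, so no member is given a name or role here, and the tissue could not be checked against marker genes.

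Gene counts per library ranged from 12399644 to 17165295. The scored pairs overlapped in depth, with 12399644 and 14216534 counts in CTRL 1 and RNAi 1 and 13664046 and 17165295 counts in CTRL 2 and RNAi 3. They did not overlap in the share of unmapped reads, which was 3.29% and 3.36% in CTRL 1 and RNAi 1 and 4.81% and 3.71% in CTRL 2 and RNAi 3. CTRL 3 and RNAi 2 had 3.75% each. Nor did they overlap in the share of counts taken by the 50 most abundant genes of the library, at 11.1% and 10.5% in CTRL 1 and RNAi 1 against 8.29% and 9.21% in CTRL 2 and RNAi 3. The part of these shares in the scores was not tested.

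The scaling moved the whole distribution of scores. With the library sum as divisor the median score over the 18376 genes was 0.12, and 7231 genes (39.4%) met the pair condition with CTRL 2 and RNAi 3 high against 2662 (14.5%) with them low. With TMM-scaled library sizes (trimmed mean of M values), the median was -0.01 and the numbers were 4350 (23.7% of 18363) and 4996 (27.2%). Which direction held more genes therefore turned with the scaling. The members themselves hardly depended on it, since 98 of 100 in each set were the same under TMM. Relative to the median over all genes, the median score was 1.34 for the set high in CTRL 2 and RNAi 3 and -1.28 for the set high in CTRL 1 and RNAi 1.

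**Figure D1:**
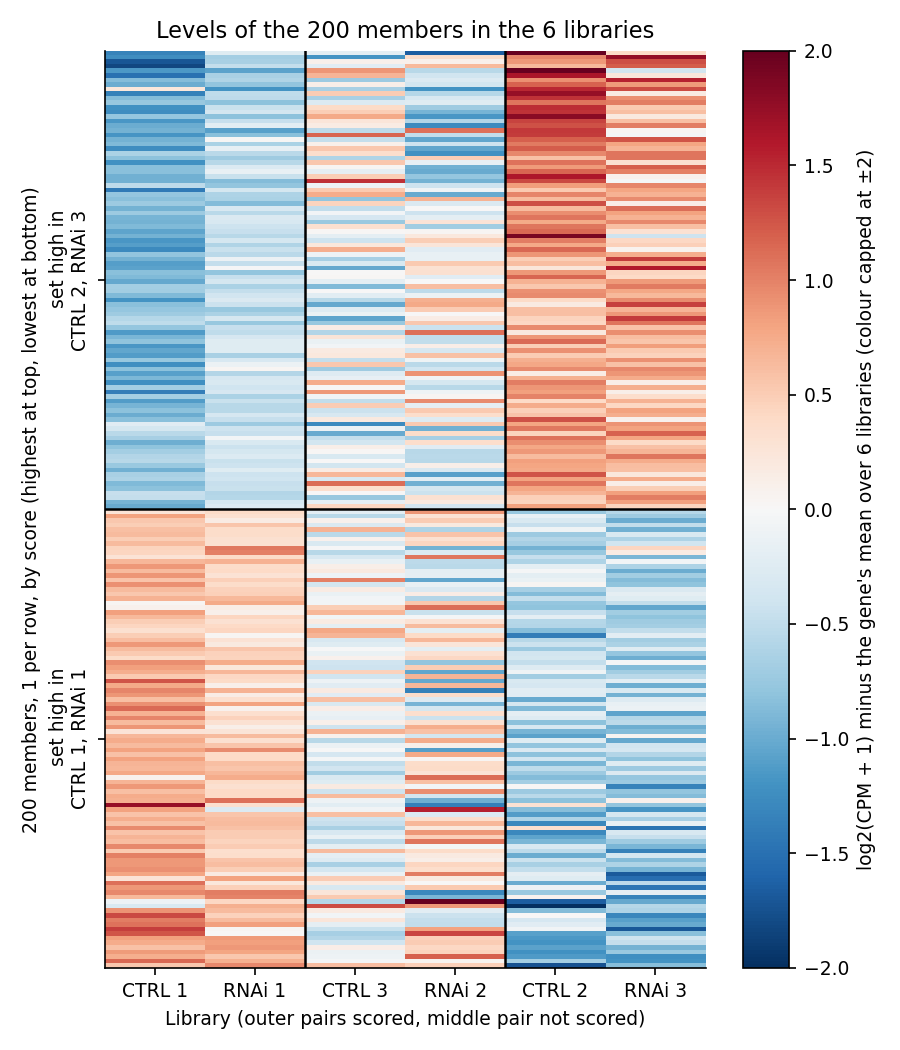
Level of each of the 200 members (rows, ordered by score) in the 6 libraries (columns), as log2(CPM + 1) minus the gene's mean over the 6 libraries, with the colour capped at ±2. The scored libraries stand in the outer pairs, where the contrast is fixed by the choice of genes. CTRL 3 and RNAi 2 stand in the middle, where levels vary from gene to gene and many lie between those of the pairs.

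The set high in CTRL 2 and RNAi 3 had scores from 1.27 to 2.49 with a median of 1.45, a 2.74-fold difference between the means of the pairs. Its highest score belonged to Potri.004G055900 on chromosome 4. This gene had 0.403, 27.7 and 2.11 CPM in CTRL 1, 2 and 3 and 1.97, 0.126 and 3.61 CPM in RNAi 1, 2 and 3. Only CTRL 2 was high, with 378 counts against 2 to 62 in the others, and RNAi 3 exceeded RNAi 1 by a difference of 0.64 in log2(CPM + 1). Its mean of 5.98 CPM reached the floor of 5 CPM only through CTRL 2, since every other library had at most 3.61 CPM. Potri.016G048000 on chromosome 16, the second in rank, had 2.82, 16.8 and 3.01 CPM in CTRL and 4.64, 10.7 and 29.5 CPM in RNAi. Here both CTRL 2 and RNAi 3 stood clear of their genotype, by differences of 2.22 and 2.43 in log2(CPM + 1). The widest gap between the pairs in this set, 1.78 on that scale, was that of Potri.002G112600 on chromosome 2, with 15.3, 56.6 and 21.6 CPM in CTRL and 14.5, 22.3 and 55.1 CPM in RNAi. In that gene the 4 libraries other than CTRL 2 and RNAi 3 lay together between 14.5 and 22.3 CPM. Gaps in this set ran down to 0.141, with 46 members at 1 or more and 4 under 0.5.

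The set high in CTRL 1 and RNAi 1 had scores from -2.04 to -0.99 with a median of -1.17, a 2.25-fold difference. Potri.003G059800 on chromosome 3 led it, with 28.3, 5.05 and 30.1 CPM in CTRL 1, 2 and 3 and 38.3, 27.2 and 10.2 CPM in RNAi 1, 2 and 3. In this gene CTRL 2 and RNAi 3 were the low exceptions and the other 4 libraries were alike. Potri.006G138800 on chromosome 6 had 37.1, 9.81 and 15.9 CPM in CTRL and 27.2, 16.8 and 6.52 CPM in RNAi. There CTRL 3 and RNAi 2 fell between the pairs. Gaps between the pairs in this set ran from 0.027 to 1.68 in log2(CPM + 1), with 19 members at 1 or more and 21 under 0.5. The ranks from 4 to 7 were held by 4 genes that follow each other on chromosome 1, described with the co-located runs.

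The cut at 100 genes fell in a dense part of the ranking. The last member and the first gene outside had scores of 1.27 and 1.27 in the set high in CTRL 2 and RNAi 3, and of -0.99 and -0.99 in the other. The counting error of a score was small beside the score, between 0.024 and 0.16 in the first of these sets and between 0.0091 and 0.15 in the second, as standard errors from the counts alone. It covers counting error only, not the difference between plants.

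Mean levels in the set high in CTRL 2 and RNAi 3 ran from 5.07 to 305 CPM with a median of 15.3 CPM, below the median of 24.1 CPM over the 18376 genes. In the set high in CTRL 1 and RNAi 1 they ran from 5.62 to 2054 CPM with a median of 39.8 CPM. Of the first set 31 members were under 10 CPM and 2 reached 100 CPM, against 9 and 34 in the second. Shares of all ranked genes at these limits were not computed. The lower and upper quartiles were 12.4 and 48.3 CPM over the 18376 genes. They were 8.71 and 34.2 CPM in the first set and 17.3 and 135 CPM in the second. The rule used the mean level as a floor and the pseudocount weighs on low levels, and their part in this was not tested. Of the 100 genes with the highest mean level of the series, 4 were members, all in the set high in CTRL 1 and RNAi 1.

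Summed over its 100 genes, the set high in CTRL 1 and RNAi 1 took up 2.24% and 1.88% of the gene counts in those 2 libraries, and 0.945% and 0.932% in CTRL 2 and RNAi 3. CTRL 3, at 1.24%, and RNAi 2, at 1.61%, lay between. The set high in CTRL 2 and RNAi 3 made up 0.476% and 0.436% of the counts there and 0.135% and 0.182% in CTRL 1 and RNAi 1, with 0.254% in CTRL 3 and 0.235% in RNAi 2. In both sums the libraries that the score did not use were intermediate. Members were chosen as extremes of the scored libraries, which by itself favours intermediate sums in the others, so nothing is read from this.

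**Figure D2:**
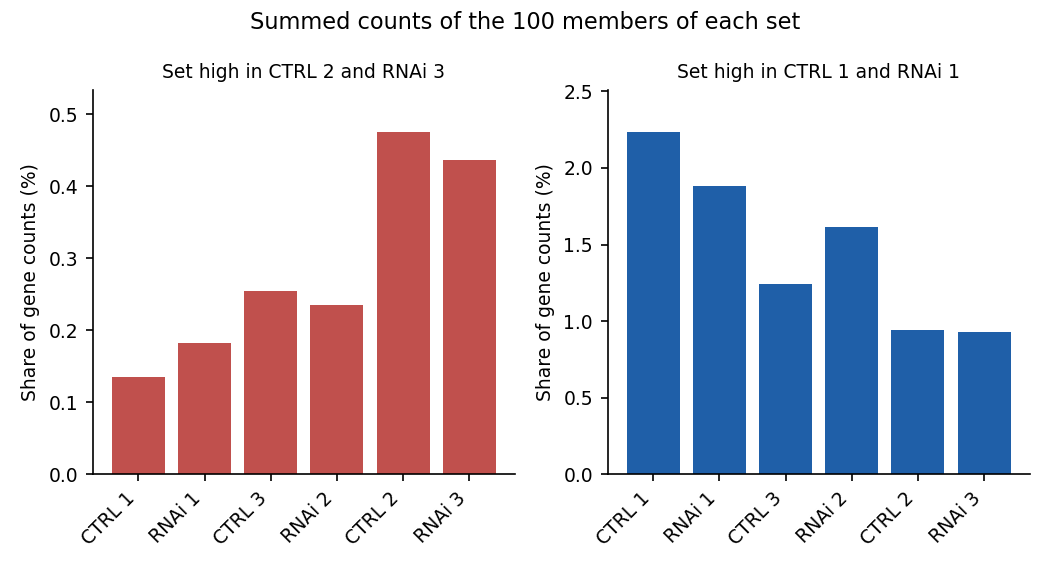
Share of all gene counts (percent, bars from 0) held by the 100 members of each set in each library. In both panels CTRL 3 and RNAi 2 lie between the scored pairs, at 0.254% and 0.235% on the left and 1.24% and 1.61% on the right. The choice of genes by the scored libraries favours this order.

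The rule gives both genotypes a difference of the same sign in every member, so only its size is described, from the libraries the score used and with no test. In the set high in CTRL 2 and RNAi 3, CTRL 2 exceeded CTRL 1 by a median of 1.73 in log2(CPM + 1), and RNAi 3 exceeded RNAi 1 by a median of 1.13. The CTRL difference was the larger in 76 of the 100 members and over 2 times the RNAi difference in 32, while no member had an RNAi difference over 2 times the CTRL difference. The set high in CTRL 1 and RNAi 1 had median differences of -1.29 within CTRL and -1.11 within RNAi, and CTRL had the larger one in 63 members. There the CTRL difference was over 2 times the RNAi difference in 13 members, and the RNAi difference over 2 times the CTRL difference in 4. Both differences reached 2-fold in 63 members of the first set and 38 of the second. All these sizes rest on the library sum. The TMM factors were 0.933 for CTRL 1 and 1.069 for CTRL 2, and 0.969 for RNAi 1 and 1.014 for RNAi 3. TMM would thus lower CTRL 2 against CTRL 1 more than RNAi 3 against RNAi 1. Sizes of both differences would shrink in the first set and grow in the second, more so for CTRL. The counts above were not recomputed under TMM. CTRL 1 had the lowest level of all 6 libraries in 76 members of the first set and the highest in 60 of the second. RNAi 1 did so in 6 and 15. CTRL 2 had the highest level in 57 members of the first set and the lowest in 39 of the second. For RNAi 3 these numbers were 36 and 49, so in the second set RNAi 3 was lowest more often than CTRL 2.

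**Figure D3:**
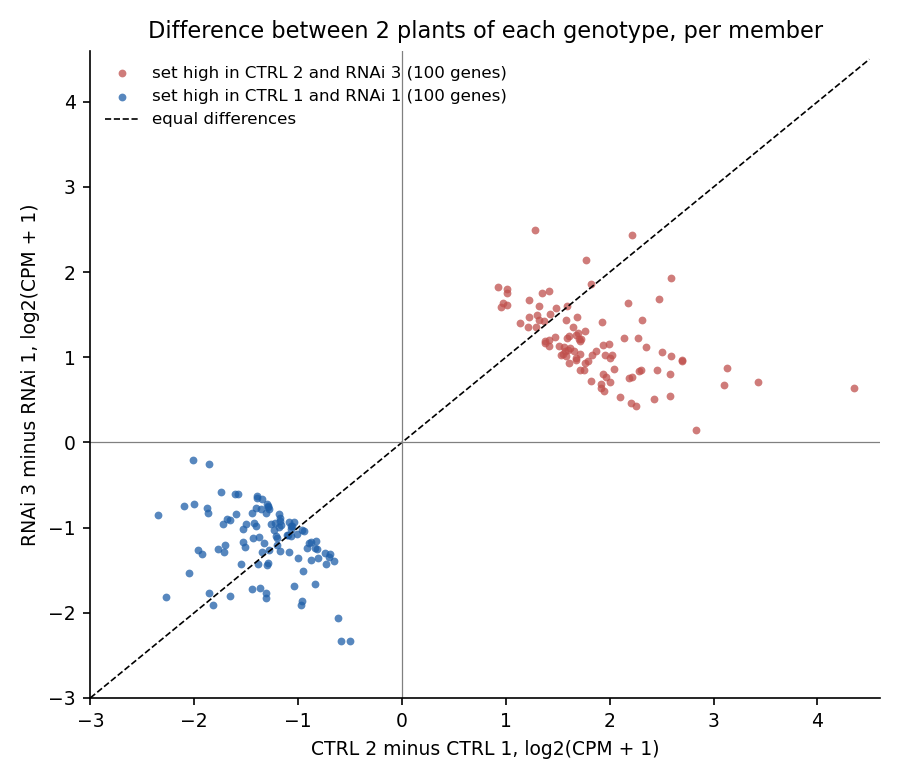
Each point is a member, with the difference between CTRL 2 and CTRL 1 on the horizontal axis and that between RNAi 3 and RNAi 1 on the vertical axis, both in log2(CPM + 1). Most points of the set high in CTRL 2 and RNAi 3 (76 of 100) lie below the dashed line of equal differences, and the empty quadrants follow from the rule.

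The levels of CTRL 3 and RNAi 2 were expressed as a position, with 0 at the mean of the lower pair and 1 at the mean of the higher pair. For the set high in CTRL 2 and RNAi 3 the median position was 0.395 for CTRL 3 and 0.305 for RNAi 2. Among all 7231 genes that met the pair condition in that direction the medians were 0.556 and 0.391. The set high in CTRL 1 and RNAi 1 had a median position of 0.398 for CTRL 3 and 0.758 for RNAi 2, beside 0.636 and 0.418 among the 2662 genes of that direction. RNAi 2 thus lay nearer to CTRL 1 and RNAi 1 in both sets by the median, whereas CTRL 3 lay nearer to the lower pair in both. With 1 library each, these positions have no replicate and were not tested.

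Single members spread widely around those medians. Among members high in CTRL 2 and RNAi 3, CTRL 3 lay between the pairs in 53 members, at or below the upper edge of the lower pair in 28 and at or above the lower edge of the higher pair in 19. RNAi 2 did so in 51, 35 and 14 members. In the set high in CTRL 1 and RNAi 1 these numbers were 61, 23 and 16 for CTRL 3 and 36, 28 and 36 for RNAi 2. Among all genes meeting the pair condition the share between the pairs was smaller, 29.6% for CTRL 3 and 20.6% for RNAi 2 in the first direction and 22.3% and 18.6% in the second. Members also have wider gaps between the pairs by choice, so nothing is read from these shares.

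**Figure D4:**
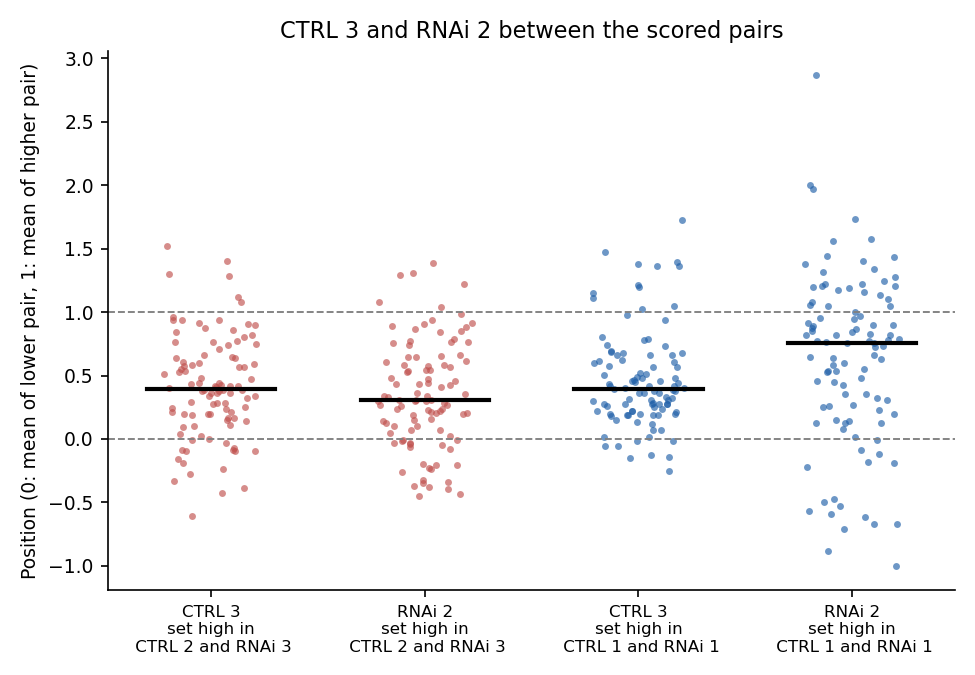
Position of CTRL 3 and RNAi 2 relative to the scored pairs, where 0 is the mean of the lower pair and 1 that of the higher pair. Points are members (100 per column), and black bars are medians, at 0.395, 0.305, 0.398 and 0.758 from left to right.

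Some members had their most extreme level in a library that the score did not use, and the 4 genes that follow were chosen after their values were seen. Potri.002G079500 on chromosome 2 had 7.90, 2.05 and 5.38 CPM in CTRL and 11.6, 71.7 and 3.67 CPM in RNAi. RNAi 2 alone was high in it. Potri.009G114800 on chromosome 9, a member of the same set, had 368, 161 and 212 CPM in CTRL and 303, 72.6 and 151 CPM in RNAi, with RNAi 2 below all others. CTRL 3 was the highest library for Potri.002G054300 on chromosome 2, at 17.0 CPM against 4.92 and 0.805 CPM in CTRL 1 and 2 and 10.97, 12.2 and 3.90 CPM in RNAi. It was the lowest for Potri.010G142800 on chromosome 10, at 8.32 CPM against 18.3 and 37.9 CPM in CTRL 1 and 2 and 12.7, 31.4 and 40.8 CPM in RNAi. RNAi 2 lay above all 4 scored libraries in 19 members of the set high in CTRL 1 and RNAi 1 and below all 4 in 11. In the other set these numbers were 4 and 11. For CTRL 3 they were 9 and 1 in the set high in CTRL 1 and RNAi 1, and 3 and 7 in the other.

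RNAi and CTRL were compared with edgeR's quasi-likelihood test over 24991 genes, all 200 members among them. Of the members 0 were called at an adjusted p under 0.05, where 1 gene (0.004%) was called over all genes. DESeq2, with 37 calls (0.124% of 29796), and limma-voom, with 2 (0.008% of 24991), also called 0 members. At an unadjusted p under 0.05, 6 members of the set high in CTRL 2 and RNAi 3 and 1 of the other set passed, beside 5.64% of all genes, and edgeR gave members no adjusted p below 0.801. The rule places 1 plant of each genotype in the higher pair and 1 in the lower, so that CTRL and RNAi overlap in every member and the spread within genotypes is wide. Nothing is read from these counts. Fitted log2 fold changes, RNAi over CTRL, had a median of -0.02 in the set high in CTRL 2 and RNAi 3 and -0.07 in the other, and 46 of 100 were above 0 in each. The median over all genes tested was -0.00096.

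A fitted difference of 4-fold or more between the genotypes was present in 1 member of each set, and in both 1 library stood apart. Potri.004G055900, described above, had a log2 fold change of -2.30 with CTRL 2 as its single high library (adjusted p = 0.801, edgeR). Potri.002G079500 had 2.53, with RNAi 2 as its single high library (adjusted p = 0.801, edgeR). Over all genes tested, 41 were fitted at least 4-fold lower in RNAi and 13 at least 4-fold higher.

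Members of each set lay on all 18 chromosomes ranked. Chromosome 12 held 9 members of the set high in CTRL 2 and RNAi 3, where its share of the ranked genes gives 3.55, and 1 of the other set. Chromosome 2 held 13 members of the set high in CTRL 1 and RNAi 1, where its share gives 7.67, and 4 of the other. Chromosome 1, the largest, had 9 and 12 against 12.2. These counts are descriptions of the chosen lists.

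Some members lay next to each other. Members of 1 set at most 5 listed genes apart in identifier order were joined into a run. The set high in CTRL 1 and RNAi 1 held 8 runs with 18 members, and the set high in CTRL 2 and RNAi 3 held 6 runs with 12. All runs but 1 were pairs. In plant genomes neighbouring genes are often tandem copies of each other, and reads shared by near-identical copies are uncertain in any count. No sequence was used here, so whether members of a run are copies was not tested.

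The run of 4 on chromosome 1, from Potri.001G387900 to Potri.001G388400, consisted of consecutive listed genes. Potri.001G387900 had 121, 28.5 and 61.6 CPM in CTRL 1, 2 and 3 and 116, 91.4 and 39.5 CPM in RNAi 1, 2 and 3. Potri.001G388100 had 25.5, 7.39 and 18.4 CPM in CTRL and 31.1, 22.4 and 8.16 CPM in RNAi. Potri.001G388200 had 90.3, 22.4 and 33.4 CPM in CTRL and 92.8, 71.2 and 38.0 CPM in RNAi. All of them, and the fourth gene too, were high in CTRL 1, RNAi 1 and RNAi 2 and lowest in CTRL 2. For Potri.001G388400 the levels were 34.8, 8.42 and 15.4 CPM in CTRL and 37.1, 29.4 and 14.4 CPM in RNAi. Their scores lay between -1.80 and -1.61.

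RNAi 2, which the score did not use, was at nearly the same position in all 4 genes of this run, from 0.778 to 0.827. CTRL 3 was not, with positions from 0.116 to 0.660. Over the whole set the median position of RNAi 2 was 0.758. The spread among members that are not neighbours was not computed, so nothing is read from these positions. The flanks of the run differed. The expressed gene before the run, Potri.001G387700, had a score of 0.54, opposite in sign. It had 9.27, 22.2 and 23.9 CPM in CTRL and 14.2, 13.4 and 13.2 CPM in RNAi. The opposite order thus held within CTRL only, and RNAi 1 was slightly above RNAi 3. After it, Potri.001G388600 and Potri.001G388800, both under 5 CPM, had scores of -0.96 and -0.56. Their means were 1.41 and 0.634 CPM, from 9 to 34 and 4 to 13 counts per library, so these scores rest on few reads. Potri.001G388900 had a score of -0.75, with 374, 226 and 217 CPM in CTRL and 286, 272 and 166 CPM in RNAi. These 3 genes shared the direction of the run, and the flanking genes are named here after their values were seen. For RNAi against CTRL, edgeR gave the members of the run adjusted p between 0.875 and 0.948.

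**Figure D5:**
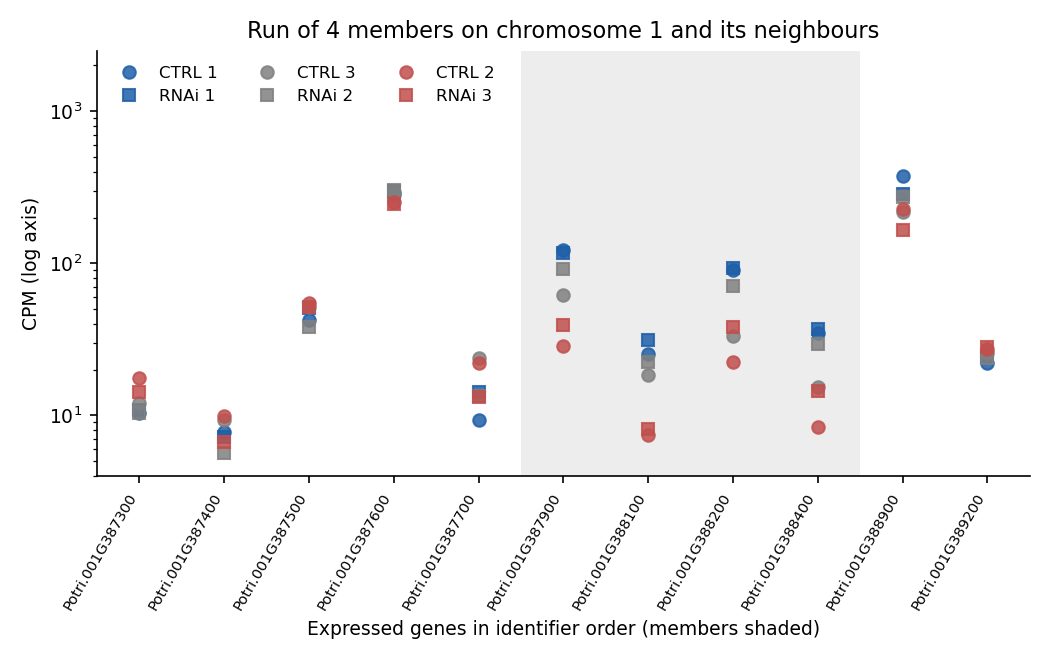
CPM (log axis) in the 6 libraries for the expressed genes around the run on chromosome 1, in identifier order, with the 4 members shaded. Within the shaded area CTRL 1 and RNAi 1 (blue) lie above CTRL 2 and RNAi 3 (red). In Potri.001G387600 to its left, at 247 to 305 CPM, the libraries lie closer together. The scored pairs have the same order there, with a score of -0.23.

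For runs of the set high in CTRL 2 and RNAi 3, positions of the members differed by under 0.25 in 5 of 6 runs for CTRL 3 and in 5 of 6 for RNAi 2. No such share was computed for members that are not neighbours, so nothing is read from these counts. On chromosome 5, Potri.005G163600 had 5.89, 15.1 and 4.99 CPM in CTRL and 6.12, 15.9 and 21.7 CPM in RNAi, and Potri.005G163700 beside it had 4.44, 9.29 and 3.58 CPM in CTRL and 3.59, 10.2 and 15.3 CPM in RNAi. In both genes RNAi 2 stood with CTRL 2 and RNAi 3, and CTRL 3 with the low libraries. The pair on chromosome 6, Potri.006G027800 and Potri.006G028000, had CTRL 3 as its lowest library, at 4.03 and 25.6 CPM, and RNAi 3 as its highest, at 26.6 and 120.2 CPM.

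On chromosome 12 it was RNAi 2 that was lowest. Potri.012G091300 had 4.52, 20.9 and 7.62 CPM in CTRL and 7.81, 3.89 and 18.7 CPM in RNAi, and Potri.012G091500 had 11.1, 57.7 and 26.1 CPM in CTRL and 19.98, 9.04 and 48.2 CPM in RNAi. The gene before the pair and the gene between its members, Potri.012G091200 and Potri.012G091400, were under 5 CPM and had scores of 0.94 and 0.92. Their means were 1.18 and 1.32 CPM, from 8 to 34 and 8 to 36 counts per library, so these scores also rest on few reads. On chromosome 3, Potri.003G176800 and Potri.003G176900 were members with scores of 1.43 and 1.28, and the gene before them, Potri.003G176700, was the first gene outside the set. It had 53.7, 149.0 and 92.1 CPM in CTRL and 64.6, 59.3 and 138 CPM in RNAi. The most abundant run of this set was on chromosome 1, where Potri.001G051600 had 167, 523 and 264 CPM in CTRL and 188, 207 and 483 CPM in RNAi. Its neighbour Potri.001G051500 had 35.4, 106 and 57.9 CPM in CTRL and 43.0, 38.7 and 94.9 CPM in RNAi, the same order of pairs at a lower level.

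Among the runs of the set high in CTRL 1 and RNAi 1, positions differed by under 0.25 in 4 of 8 runs for CTRL 3 and in 3 of 8 for RNAi 2. Here too the share among members that are not neighbours was not computed. On chromosome 7, Potri.007G045100, the most abundant gene in a run, had 2138, 891 and 920 CPM in CTRL and 1994, 597 and 1029.5 CPM in RNAi, with RNAi 2 lowest. Its partner Potri.007G044500, with 3 genes between them, had 155, 58.3 and 97.7 CPM in CTRL and 149.8, 118 and 94.7 CPM in RNAi, with RNAi 2 between the pairs. By contrast, Potri.006G010200 and Potri.006G010300 on chromosome 6 shared the split into 3 higher and 3 lower libraries. The first had 66.3, 22.5 and 22.3 CPM in CTRL and 55.0, 48.3 and 23.0 CPM in RNAi, and the second 974, 429.6 and 470.3 CPM in CTRL and 898, 801 and 371 CPM in RNAi. In both, RNAi 2 was nearer to CTRL 1 and RNAi 1, and CTRL 3 nearer to CTRL 2 and RNAi 3. On chromosome 8, Potri.008G030800 and Potri.008G031000 were both highest in RNAi 2 and CTRL 1. CTRL 1 and RNAi 2 stood at 21.2 and 22.5 CPM in the first and 13.9 and 24.0 CPM in the second.

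The nearest ranked genes on either side that were no members numbered 184 for the set high in CTRL 2 and RNAi 3, and 103 of them (56.0%) had a score above the median of all ranked genes. For the set high in CTRL 1 and RNAi 1, 113 of 181 (62.4%) had a score below it. The pair condition was met in the member's direction by 45.7% and 20.4% of these neighbours, beside 39.4% and 14.5% of all ranked genes.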

How the data were processed

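Polyadenylated RNA was sequenced as stranded paired-end libraries, per the labels' protocols. The authors deposited raw read counts per gene and library, without regard to strand and per strand, according to the columns, per the file headers. The submitters' processing notes name STAR. Neither its version nor a build or annotation is given in the sources used here. The Potri identifiers follow the naming of Populus trichocarpa, another species; what that does to the counts was not tested. Chromosomes were read from the identifiers.

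The reverse column, which holds nearly all gene counts, was used as the sense strand. Summary lines (unmapped, multimapping, no feature, ambiguous), 11.7% to 13.1% of reads, stayed out. Depth limits precision as 3 counts, which a count of 0 allows, equal 0.175 to 0.242 CPM. Members, lists and tests were chosen with earlier results of these data known. RNAi was compared with CTRL by edgeR 4.0.16 in R 4.3.3 (quasi-likelihood F test, robust, TMM, filterByExpr, two-sided, Benjamini-Hochberg), tested on simulated data, with DESeq2 1.42.0, limma-voom (limma 3.58.1), other scalings, no filter, a replicate block and left-out libraries as alternatives. The series' design text calls the 3 libraries of each genotype biological replicates. The rule for named genes takes the 12 leading members of each set, the last member, the first gene outside, and the 3 runs with the most members. Since identifiers carry no names, the text gives only some of these, and the other identifiers were chosen after their values were seen. Planned keyword lists, marker genes and promoter motifs were not analysed here for lack of names and sequence.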

Additional observations from a re-analysis of the deposited data

Results flagged for a closer look

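Opposite-strand counts entered the members' comparisons only in the alternative that counted both strands. They were higher in all 3 RNAi libraries than in all 3 CTRL libraries, with at least 2 times the total, in 2 of the 24 members that had at least 30 such counts. Over all ranked genes with as many such counts, 39 of 1900 (2.05%) met the same condition. On that strand, Potri.002G039000 gave 6, 7 and 8 counts in CTRL 1, 2 and 3, with 26, 16 and 17 in RNAi 1, 2 and 3, a total of 59 in RNAi against 21 in CTRL. Potri.001G388400, of the run on chromosome 1, had 0, 3 and 4 in CTRL and 8, 5 and 10 in RNAi, a total of 23 against 7. The difference was not tested in either gene.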

How the results depend on the processing

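No member was called in RNAi against CTRL under any of the 13 alternatives run (0 of 200 each). Over all genes the count of 1 became 0 with the library sum as scaling and 0 with the replicate block, 37 with DESeq2 and 2 with limma-voom, and ranged from 0 to 7 with 1 library left out, 7 without RNAi 1. The cause was not tested. Between libraries of equal number, the correlation of deviations from the genotype mean was 0.24, -0.02 and -0.03 over genes, and it was highest, at 0.42, between CTRL 2 and RNAi 3. Equal numbers were therefore not taken to pair the plants, and the block was used as an alternative only. Requiring a mean of at least 20 CPM by construction drops the members of lower level. That floor kept 43 members of the set high in CTRL 2 and RNAi 3 and 67 of the other set. Elsewhere 69 to 98 members of the former and 84 to 98 of the latter were kept. Median positions moved by under 0.1 in all alternatives, and the number of members in runs stayed between 8 and 18 and between 12 and 24. Scores were recomputed for 58 genes, not for the 7 named genes that flank or split runs, and kept their sign in all 232 recomputed values. Of these, 25 moved by more than the SD of the differences within CTRL and within RNAi. That SD rests on 2 differences per gene, so it is no even measure of stability. With a pseudocount of 5 CPM, Potri.004G055900 fell from 2.49 to 1.45 without counting as moved. Potri.001G388100 counted as moved under TMM, from -1.73 to -1.85. The lowest ratio, 0.268, was that of Potri.001G147200 with both strands counted. A mean over the 4 scored libraries was added after seeing the data.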

Other observations

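Most members had next to no reads on the opposite strand, with a median of 0.104% of the stranded counts in the set high in CTRL 2 and RNAi 3 and 0.147% in the other, beside 0.163% over all ranked genes. A total of 2 members in each set exceeded 5%. The genes named here were chosen after their values were seen. In Potri.001G147200 on chromosome 1 the opposite strand prevailed, at 67.6%. Its sense counts were 229, 85 and 63 in CTRL 1, 2 and 3 and 91, 20 and 41 in RNAi 1, 2 and 3, while its opposite-strand counts were 135, 192 and 208 in CTRL and 152, 201 and 217 in RNAi. These counts are not scaled for depth, and CTRL 1, the shallowest library, was highest in the sense strand and lowest in the opposite one. In Potri.001G388200, of the run on chromosome 1, sense counts were 1120, 306 and 522 in CTRL and 1319, 1134 and 653 in RNAi, and opposite-strand counts were 38, 65 and 53 in CTRL and 40, 72 and 108 in RNAi. CTRL 1 and RNAi 1 were lowest on the opposite strand there and, with RNAi 2, highest in the sense strand. In Potri.008G135200 on chromosome 8, with 23.0% of its counts on the opposite strand, these counts were 40, 58 and 65 in CTRL and 53, 79 and 80 in RNAi. In the sense strand it had 79, 328 and 109 counts in CTRL and 176, 141 and 421 in RNAi.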
